A study of Rattus norvegicus with 6 samples.

Results

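The 10 genes described here are the insulin receptor, its intracellular relay and the IGF binding side of the liver insulin response: Insr, Irs1, Irs2, Pik3r1, Akt1, Akt2, Foxo1, Igfbp1, Igfbp2 and Gckr. They were taken by gene symbol from a liver expression table of 32930 rows, in which each symbol stood on 1 row, and all 10 were among the 18455 genes that passed the low-count filter. The table held 6 liver RNA-seq libraries, 3 from animals on a high-fat diet that received the vehicle 0.5% CMC-Na (HFD) and 3 from animals on the same diet treated with the herbal formula HTG, the Huazhuo Tiaozhi granule (HTG). The labels give an intervention of 12 weeks. In the study's rat experiment 12 weeks was the length of the high-fat diet, and the drugs were given only in the later part of it. The study's methods describe the 0.5% CMC-Na vehicle for rats and name none for mice. The labels give no dose of HTG and no age. There was no group on normal chow, so both groups shared the diet. The treatment field of the HTG libraries reads HCG, and they were grouped by their titles. The labels call the animals rats and the submitters' processing notes name the rat build mRatBN7.2. Every member, however, carried a mouse Ensembl identifier, and the study's methods name C57BL/6 J mice for the sequencing. The study's results text and figure legend on the sequencing also call the animals mice. The species of the libraries was therefore not settled by the sources used here, and coordinates below are those of the table, whose build is not named. They are not rat coordinates. The table puts Igfbp1 on chromosome 11 and Igfbp2 on chromosome 1, where the rat assembly GRCr8 has chromosomes 14 and 9.

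Insulin binds its receptor on hepatocytes, which phosphorylates the adaptors IRS1 and IRS2. These recruit phosphoinositide 3-kinase and activate AKT, and AKT phosphorylates FOXO1 and keeps it out of the nucleus. FOXO1 drives fasting genes such as Igfbp1 and those of gluconeogenesis, so insulin lowers them. Activity in this pathway is set largely by phosphorylation, which an RNA table does not measure.

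Total counts ran from 50648778 to 90563477 per library. Among low counts, 4 and 8 occurred more often than the values next to them (6450 and 3333 times), so 1 sequenced fragment was taken as 4 counts. The steps were not strict, since counts of 1, 2 and 3 occurred 5104, 4229 and 2549 times. Levels of a gene across libraries are given as CPM, counts divided by the library total after TMM scaling, and levels of different genes as FPKM, which is per length. Fold changes are HTG over HFD on the log2 scale from edgeR's quasi-likelihood test, with the standard error (SE), and a gene was called at an adjusted p under 0.1. Its p-values set the difference between groups against the spread of the 3 libraries within each group, moderated across genes. An exact permutation test of a single gene could not go below 0.1 at this size.

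Insulin response of the Igfbp1 promoter is textbook biology, so the 250 bases before the start of the 2 binding-protein genes are shown, from RefSeq on the rat assembly GRCr8 (Igfbp1 at chr14:86261027-86261276, plus strand, and Igfbp2 at chr9:81864561-81864810, plus strand). They are of the labelled species, while the table's rows are mouse genes. Capitals mark the core motifs CAAAACA and CAAAATA of the insulin response element that FOXO1 binds, read on either strand.
Igfbp1: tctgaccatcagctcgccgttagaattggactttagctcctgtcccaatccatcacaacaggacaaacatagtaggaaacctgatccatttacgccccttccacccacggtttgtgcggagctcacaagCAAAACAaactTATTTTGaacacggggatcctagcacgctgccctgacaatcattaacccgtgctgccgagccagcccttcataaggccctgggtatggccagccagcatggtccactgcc
Igfbp2: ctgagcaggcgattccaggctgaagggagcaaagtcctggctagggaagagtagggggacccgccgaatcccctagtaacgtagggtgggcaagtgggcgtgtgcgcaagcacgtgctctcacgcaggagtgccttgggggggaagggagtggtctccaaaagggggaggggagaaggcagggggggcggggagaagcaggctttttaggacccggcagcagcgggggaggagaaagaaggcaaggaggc
In Igfbp1 CAAAACA lay 121 to 115 bases before the start on the gene's strand, and CAAAATA, on the opposite strand, lay 110 to 104 bases before it and reads TATTTTG there. Neither occurred in the Igfbp2 window, whose GC content was 64.0% against 52.8% for Igfbp1. Among 33469 rat promoter windows of the same length, 5.46% held CAAAACA, 4.46% held CAAAATA and 0.373% held both. Of the 9 members with a window, which leaves out Irs2, Igfbp1 was the only one with either core motif. The FOXO consensus GTAAACA occurred in 3.21% of windows and, among the members, only in that of Insr. A match describes letters in a window and is not a measured binding site.

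Of the 10 members, 3 were called, and all 3 were lower in HTG: Akt1, Akt2 and Foxo1. Over all genes tested, 5.43% were called lower, 5.41% higher and 10.8% in either direction. None of the 10 passed an adjusted p under 0.05 in the main edgeR fit, which 0.0108% of all genes did. With at least 10 counts in every library, edgeR at 0.05 called 1 member, Akt1 (adjusted p = 0.0466), and 684 genes in all. With counts divided by 4 it called 1 member, again Akt1 (adjusted p = 0.0476), and 822 genes in all. An unadjusted p under 0.05 in edgeR was reached by 3 of the 10 members and by 4563 of the 18455 genes tested. At the same adjusted threshold of 0.05, DESeq2 called 3 members and 13.0% of all genes, and limma on FPKM called 2 members and 8.03% of the 10930 genes it tested. No member passed the volcano thresholds of an unadjusted p under 0.05 with an absolute log2 fold change over 1, which 4.97% of genes passed upward and 3.88% downward. By CPM, 1 member lay higher in every HTG library than in any HFD library and 4 lay lower, where 16.5% and 15.5% of all genes did. The median log2 fold change of the members was -0.18, and that of all genes was 0.03.

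**Figure D1:**
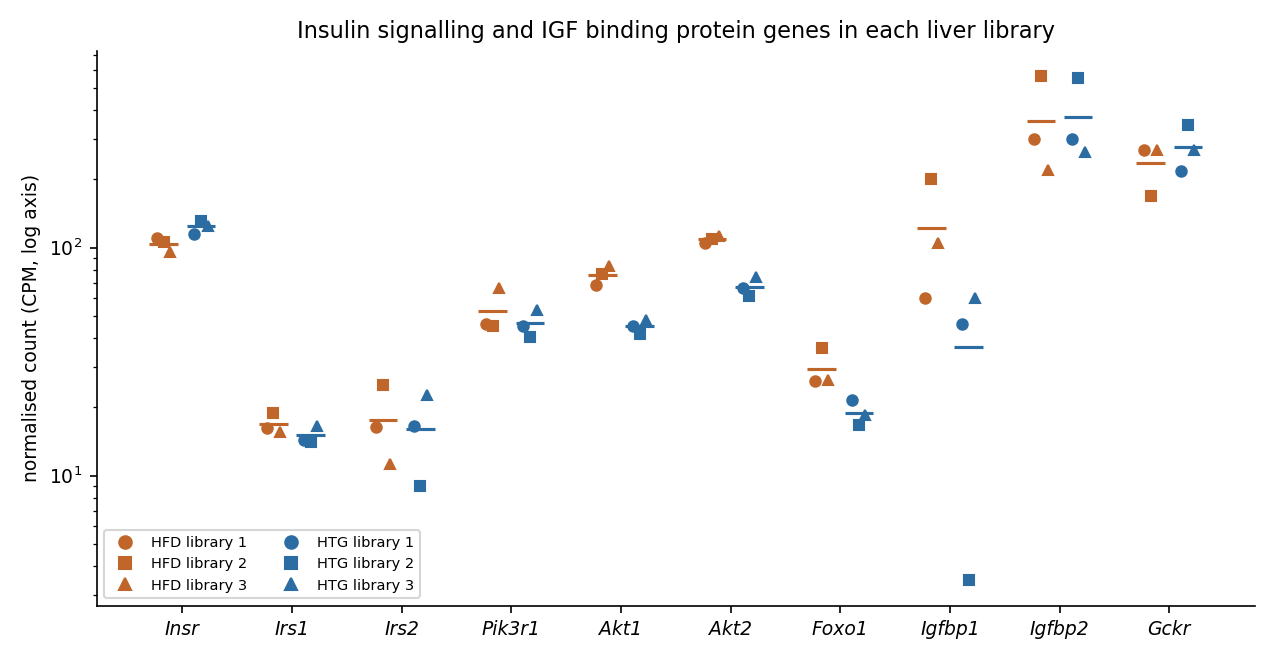
Level of each member in every library, as CPM on a log axis, with 3 HFD and 3 HTG libraries per gene marked by library number and a line at each group's mean. Akt1, Akt2 and Foxo1 lie lower in all 3 HTG libraries, and Igfbp1 spreads from 3.47 CPM in HTG library 2 to 200 CPM in HFD library 2.

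Akt1 (ENSMUSG00000001729, chromosome 12, 112620255 to 112641318, minus strand) encodes the more widely expressed of the AKT kinases found in liver. It stood at 68.5, 76.7 and 82.8 CPM in HFD libraries 1, 2 and 3 and at 45.2, 42.0 and 48.1 CPM in HTG libraries 1, 2 and 3. The groups did not overlap, and the gap between the lowest HFD and the highest HTG library was wider than the range within either group. Akt1 fell by 0.75 on the log2 scale in HTG (SE 0.16, 95% interval -1.12 to -0.38, adjusted p = 0.0605), which is 1.68-fold lower. On the FPKM scale the HTG libraries lay within 10.21 to 10.36, and the HFD libraries read 16.75, 16.90 and 20.07.

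Akt2 (ENSMUSG00000004056, chromosome 7, 27290977 to 27340251, plus strand) encodes the kinase isoform most tied to insulin's metabolic effects. Its levels, in the order of the library numbers, were 105, 109 and 113 CPM in HFD and 66.7, 61.2 and 74.4 CPM in HTG. Again no HTG library reached the HFD range, and the HFD libraries had the smallest relative spread of any member, with a coefficient of variation of 3.48%. Akt2 fell by 0.69 (SE 0.16, 95% interval -1.07 to -0.32, adjusted p = 0.0629), or 1.62-fold. A pseudogene row, Akt2-ps, overlaps it and held 1112 counts over all libraries, 2.99% of the Akt2 total of 37234.

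Akt1 and Akt2 moved by nearly the same amount. The ratio of Akt2 to Akt1 in FPKM was 0.885, 0.817 and 0.784 in HFD and 0.847, 0.837 and 0.889 in HTG. These ranges overlapped, and the group means differed by 0.05 on the log2 scale.

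Foxo1 (ENSMUSG00000044167, chromosome 3, 52175757 to 52260642, plus strand) encodes the transcription factor that AKT holds in the cytoplasm. It measured 26.0, 36.2 and 26.3 CPM in HFD and 21.4, 16.6 and 18.5 CPM in HTG. All HTG libraries lay below all HFD libraries, with HFD library 2 well above the rest. Foxo1 fell by 0.65 (SE 0.19, 95% interval -1.09 to -0.21, adjusted p = 0.0937), or 1.57-fold, and its call lay nearest to the threshold. Without the low-count filter the adjusted p was 0.12.

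All 3 calls were lost in each fit without 1 library except the fit without HTG library 1. Akt1 had an adjusted p of 0.104, 0.129 and 0.145 without HFD library 1, 2 or 3, and of 0.0607, 0.203 and 0.183 without HTG library 1, 2 or 3. For Akt2 the same 6 values were 0.12, 0.132, 0.148, 0.0726, 0.21 and 0.184, and for Foxo1 they were 0.126, 0.196, 0.152, 0.0754, 0.281 and 0.238. The log2 fold changes in these fits ran from -0.82 to -0.69 for Akt1, -0.76 to -0.63 for Akt2 and -0.80 to -0.48 for Foxo1. Their direction was fixed in advance, since the groups of each gene did not overlap. No gene of the whole table reached an adjusted p under 0.1 in edgeR once HFD library 3, or library 2 or 3 of HTG, was left out, while 3952, 3086 and 3444 genes had an unadjusted p under 0.05.

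Hepatocyte markers were compared as well. The summed FPKM of 7 hepatocyte markers was 38900 to 43500 in HFD and 29700 to 34400 in HTG. Of the 7, 2 were called lower, Apob and Tat, against 5.43% of all genes. By CPM, 4 of the 7 lay lower in every HTG library than in any HFD library, where 15.5% of all genes did. The other 5 markers were not called, and among them Ttr had a log2 fold change of 0.06 and Alb, which makes up most of the sum, -0.28 (adjusted p = 0.555). Transcripts of the mitochondrial chromosome took 4.97% to 6.45% of counts in HFD and 9.31% to 15.2% in HTG. The part of either in the lower Akt1, Akt2 and Foxo1 levels was not tested, and in bulk liver fewer cells of a type and less RNA per cell cannot be told apart.

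**Figure D2:**
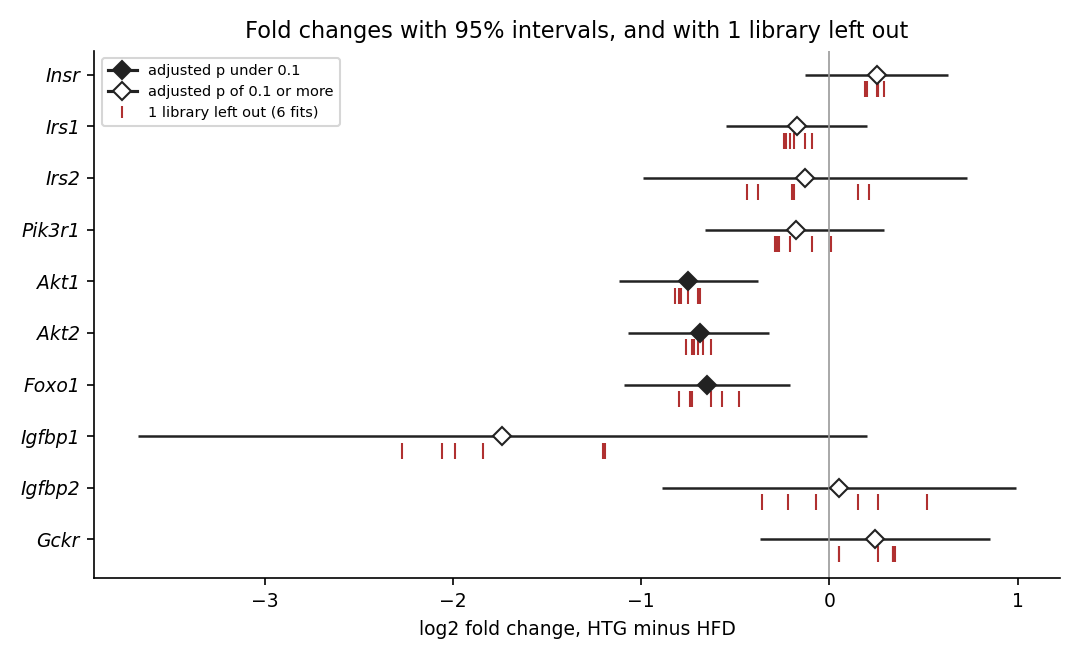
Fitted log2 fold change of each member, HTG over HFD, as a diamond with its 95% interval from edgeR, filled where called, with red ticks for the 6 fits that leave out 1 library. The intervals of Akt1, Akt2 and Foxo1 lie wholly below 0, and that of Igfbp1 runs from -3.67 to 0.20.

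Upstream of AKT, the receptor and adaptors gave no call. Insr (ENSMUSG00000005534, chromosome 8, 3172061 to 3329617, minus strand) encodes the insulin receptor and read 110, 106 and 95.7 CPM in HFD and 115, 131 and 125 CPM in HTG. By CPM every HTG library was above every HFD library, but by FPKM the groups overlapped, with 6.91 to 8.03 in HFD and 7.80 to 9.63 in HTG. Its log2 fold change was 0.25 (95% interval -0.13 to 0.63, adjusted p = 0.394).

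Irs1 (ENSMUSG00000055980, chromosome 1, 82210822 to 82269137, minus strand) and Irs2 (ENSMUSG00000038894, chromosome 8, 11034681 to 11058458, minus strand) encode the receptor's main docking proteins. Irs1 read 16.2, 18.8 and 15.6 CPM in HFD and 14.4, 14.1 and 16.5 CPM in HTG, which overlap, whereas by FPKM all HTG libraries, at 1.46 to 1.57, lay below the HFD libraries, at 1.70 to 1.86. It had a log2 fold change of -0.17 (95% interval -0.55 to 0.20, adjusted p = 0.543). Irs2, whose transcription FOXO1 raises in the fasted liver, read 16.3, 25.1 and 11.2 CPM in HFD and 16.5, 9.04 and 22.5 CPM in HTG. The spread of Irs2 within each group was 40.0% and 42.1% of the mean, far wider than the difference between groups, and the log2 fold change of -0.13 had an interval of -0.99 to 0.73 (adjusted p = 0.86). The FPKM ratio of Irs2 to Irs1 was 1.46, 1.93 and 1.04 in HFD and 1.67, 0.923 and 1.97 in HTG, so Irs2 was the more abundant in every library except HTG library 2.

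Pik3r1 (ENSMUSG00000041417, chromosome 13, 101817071 to 101904725, minus strand) encodes the regulatory subunit through which phosphoinositide 3-kinase docks on the adaptors. It read 46.4, 45.3 and 66.4 CPM in HFD and 45.5, 40.7 and 53.4 CPM in HTG. Only HFD library 3 stood above the HTG range, and the log2 fold change was -0.18 (95% interval -0.66 to 0.29, adjusted p = 0.624).

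Igfbp1 (ENSMUSG00000020429, chromosome 11, 7147782 to 7152546, plus strand) encodes a secreted IGF binding protein that insulin represses, and it had the widest spread of the members. It read 60.2, 200 and 105 CPM in HFD and 46.1, 3.47 and 60.1 CPM in HTG. HTG library 2 stood far below the rest, with 339 counts where the other libraries had 2813 to 13319. The groups came close to touching, HFD library 1 at 60.2 against HTG library 3 at 60.1 CPM, and the spread was 58.5% of the mean in HFD and 80.7% in HTG. The fitted log2 fold change of -1.74 (SE 0.85, 95% interval -3.67 to 0.20, adjusted p = 0.248) was the largest of the members and was not called. It was -1.19 without HFD library 2 and -1.20 without HTG library 2.

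Igfbp2 (ENSMUSG00000039323, chromosome 1, 72863662 to 72891633, plus strand) encodes another secreted IGF binding protein of liver. It read 299, 566 and 219 CPM in HFD and 299, 557 and 263 CPM in HTG, so both groups spanned nearly the same range, with library 2 highest in each. The log2 fold change was 0.05 with an interval of -0.89 to 0.99 (adjusted p = 0.959). The FPKM ratio of Igfbp1 to Igfbp2 was 0.244, 0.427 and 0.584 in HFD and 0.187, 0.00754 and 0.277 in HTG. The groups overlapped, and HTG library 2 lay far below the rest.

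Gckr (ENSMUSG00000059434, chromosome 5, 31454787 to 31484658, plus strand) encodes a regulatory protein of hepatocyte glucose metabolism. It read 268, 168 and 268 CPM in HFD and 216, 346 and 269 CPM in HTG, and the groups overlapped (log2 fold change 0.24, 95% interval -0.37 to 0.85, adjusted p = 0.61). HTG library 2 was the highest and HFD library 2 the lowest, and the other 4 libraries lay within 216 to 269 CPM.

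**Figure D3:**
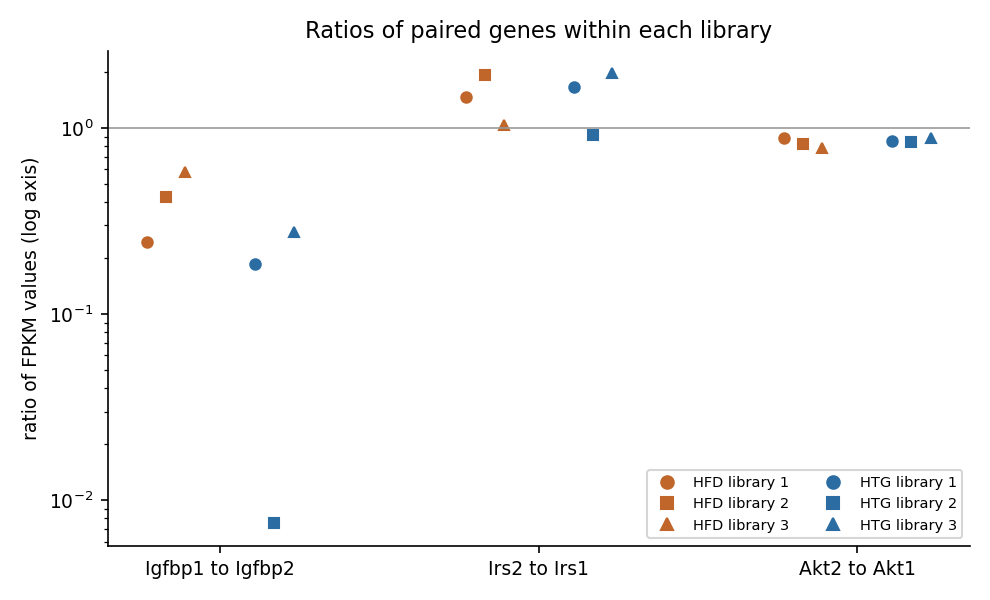
Ratio of the FPKM values of paired genes in each library on a log axis, for HFD and HTG libraries. The Akt2 to Akt1 ratio stays within 0.784 to 0.889, whereas the Igfbp1 to Igfbp2 ratio drops to 0.00754 in HTG library 2.

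Per length, the secreted binding proteins and Gckr led and the adaptors came last. Mean FPKM over the 6 libraries was 189 for Igfbp2, 56.6 for Gckr, 48.6 for Igfbp1, 14.1 for Akt1, 11.8 for Akt2, 7.88 for Insr, 4.68 for Pik3r1, 2.65 for Foxo1, 2.49 for Irs2 and 1.65 for Irs1. By group means the order of 2 neighbouring pairs turned, with Igfbp1 at 75.5 and Gckr at 52.8 in HFD but 21.6 and 60.4 in HTG, and Foxo1 at 3.27 and Irs2 at 2.65 in HFD but 2.03 and 2.33 in HTG. Neighbours in the pooled order had separate ranges over the libraries only for Igfbp2 above Gckr, Insr above Pik3r1 and Pik3r1 above Foxo1. All other neighbours overlapped, so their order was within the spread of the libraries, although Akt1 exceeded Akt2 in each of the 6 libraries. Among the 29341 rows with a level above 0, Igfbp2 lay at percentile 99.2 and Irs1 at 68.8.

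**Figure D4:**
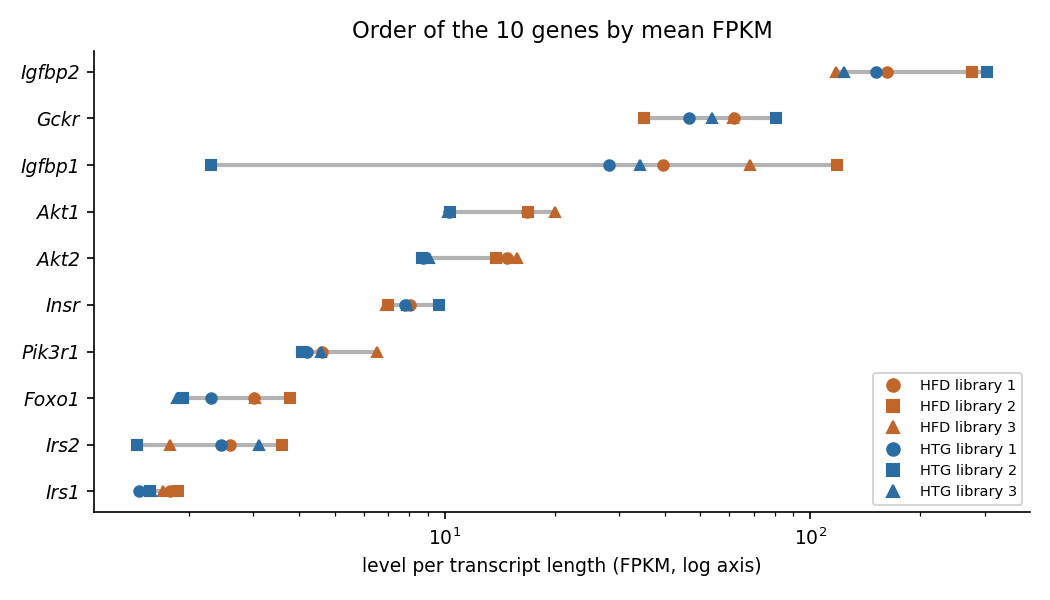
FPKM of each member in every library on a log axis, ordered by the mean over the 6 libraries, with a grey line over the range. Igfbp2 lies at 117.51 to 305.05 FPKM, above every other member's range save that of Igfbp1, which reaches 118.37.

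HTG library 2 had the lowest CPM of all 6 libraries for 7 of the 10 members, namely Irs1, Irs2, Pik3r1, Akt1, Akt2, Foxo1 and Igfbp1, and the highest for Insr and Gckr. HFD library 2 was the highest for 5, Irs1, Irs2, Foxo1, Igfbp1 and Igfbp2. The 52 other insulin signalling genes described further on did not have HTG library 2 lowest as often. It was lowest for 12 of them, against 13 for HFD library 3, 11 for HTG library 3 and 10 for HTG library 1. HFD library 2 was highest for 19 of the 52. Among the insulin-repressed or FOXO1-induced genes described further on, Pck1, G6pc, Pdk4 and Tat were also highest by CPM in HFD library 2 and lowest in HTG library 2, while Gadd45a, Apoc3 and Bcl6 had the reverse order. By FPKM the highest library was HFD library 1 for Pck1 and HFD library 3 for Tat. The member pattern also changed by FPKM. The lowest library was then HTG library 1 for Irs1, HFD library 2 for Pik3r1 and HTG library 3 for Akt1 and Foxo1. Igfbp2 was then highest in HTG library 2, at 305.05 against 276.92 in HFD library 2.

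Other insulin signalling genes gave 2 called higher and 8 called lower of 52 tested, against 5.41% and 5.43% of all genes. Their median log2 fold change was -0.17. Among the called lower genes were Mapk3 and Map2k1 of the MAP kinase branch, Pdpk1, which phosphorylates AKT, Mapkap1 and Mtor of the kinase complex that also acts on AKT, and Enpp1, whose product restrains the receptor. Enpp1 read 3.45, 3.33 and 3.23 FPKM in HFD and 1.82, 1.70 and 1.28 FPKM in HTG and fell by 1.03 (SE 0.17, adjusted p = 0.0538). Pdpk1 read 1.84, 2.48 and 2.10 FPKM in HFD and 1.03, 1.06 and 1.29 FPKM in HTG and fell by 0.89 (SE 0.22, adjusted p = 0.0656). The named genes called lower thus held relay kinases and a restraint of the pathway. Rictor, of the same complex as Mapkap1 and Mtor, went the other way and was not called (log2 fold change 0.56, SE 0.20, adjusted p = 0.14). Its groups were apart by CPM and overlapped by FPKM.

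Called higher were Rps6kb2, a kinase gene downstream of mTOR, and Socs3, a cytokine-induced inhibitor of receptor signalling. Rps6kb2 rose by 0.67 (SE 0.16, adjusted p = 0.0657). Socs3 read 11.53, 9.78 and 4.27 FPKM in HFD and 17.11, 40.80 and 74.62 FPKM in HTG, without overlap, and rose by 2.44 (SE 0.58, adjusted p = 0.0629). It was 1.73 without HTG library 3, and its call held in 1 of the 6 fits that left out a library, the fit without HTG library 1. Of the 52 genes, 5 lay wholly higher and 15 wholly lower in HTG by CPM, where 16.5% and 15.5% of all genes did. The volcano thresholds were passed by 1 of the 52 in each direction, against 4.97% of all genes upward and 3.88% downward.

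Both KEGG pathway entries examined are annotated in the table's own columns, were chosen after the values were seen, and cover 7 of the 10 members, all but Igfbp1, Igfbp2 and Gckr. Of 126 tested genes of the Insulin signaling pathway entry, 18 (14.3%) were called lower and 4 (3.17%) higher, with a median of -0.23. Of 119 tested genes of the FoxO signaling pathway entry, 13 (10.9%) were called lower and 2 (1.68%) higher, with a median of -0.18. The shares over all genes tested were 5.43% lower and 5.41% higher. The entries share genes with each other and with the list above, so their counts are not separate results.

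Of the other genes of the IGF axis, 1 of 11 tested was called, against 10.8% of all genes. It was the scavenging receptor gene Igf2r. Igf2r read 2.93, 3.22 and 4.21 FPKM in HFD and 1.91, 1.85 and 1.67 FPKM in HTG and fell by 0.89 (SE 0.18, adjusted p = 0.0582). Igf1, the liver-derived growth factor that the binding proteins carry, read 39.05, 39.58 and 30.58 FPKM in HFD and 63.39, 43.07 and 48.01 FPKM in HTG. By FPKM the HTG libraries were all higher, by CPM the groups overlapped, and the log2 fold change was 0.55 (SE 0.25, adjusted p = 0.217). Median log2 fold change of the 11 genes was 0.11, and it was -0.15 without HFD library 2 and -0.22 without HTG library 1.

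Liver genes that insulin represses or FOXO1 induces form the list to which Igfbp1 belongs by function. They gave 1 called higher and 3 called lower of 15 tested, against 5.41% and 5.43% of all genes, with a median of -0.49. Mttp, which loads lipid onto apolipoprotein B, fell by 1.01 (SE 0.28, adjusted p = 0.0818). Tat, the tyrosine-degrading enzyme that is also in the hepatocyte marker list, read 619.5, 770.81 and 792.09 FPKM in HFD and 312.94, 156.54 and 365.96 FPKM in HTG and fell by 1.32 (SE 0.37, adjusted p = 0.0839). Sesn3, a stress-induced inhibitor of mTOR signalling, fell by 0.90 (adjusted p = 0.0828).

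Apoc3, an inhibitor of triglyceride clearance that FOXO1 can induce, went the other way. It read 831.85, 556.02 and 786.54 FPKM in HFD and 1260.94, 1627.77 and 1286.56 FPKM in HTG and rose by 0.99 (SE 0.22, adjusted p = 0.0612).

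The gluconeogenic genes were not called. G6pc, the last enzyme of glucose release, read 29.42, 132.45 and 96.32 FPKM in HFD and 45.89, 7.92 and 16.54 FPKM in HTG. HTG library 1 lay above HFD library 1, and the log2 fold change was -1.84 (SE 0.72, adjusted p = 0.162). Pck1, the gatekeeper of gluconeogenesis, read 1002.54, 990.4 and 403.86 FPKM in HFD and 500.64, 370.2 and 587.45 FPKM in HTG, with a log2 fold change of -0.67 (SE 0.40, adjusted p = 0.345). Pdk4, which shuts off pyruvate oxidation in fasting, had -2.61 (adjusted p = 0.126), and Gadd45a and Bcl6 had 1.35 (adjusted p = 0.172) and 1.15 (adjusted p = 0.109). DESeq2 called these 3, with adjusted p of 0.0826, 0.0594 and 0.0293. Without HFD library 2 Pdk4 was -1.23, and without HTG library 2 Gadd45a was 0.53. Without HTG library 1, G6pc was -2.80 (adjusted p = 0.0718), and Gadd45a and Bcl6 had adjusted p of 0.0798 and 0.0463.

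Insulin-induced liver genes gave 1 called in each direction of 11 tested, against 5.41% higher and 5.43% lower of all genes. Mlxipl, the carbohydrate-responsive transcription factor ChREBP, read 58.9, 46.76 and 82.7 FPKM in HFD and 101.68, 196.16 and 147.61 FPKM in HTG and rose by 1.29 (SE 0.29, adjusted p = 0.0613). Me1, a source of NADPH for fatty acid synthesis, read 11.74, 28.94 and 57.30 FPKM in HFD and 8.04, 6.04 and 7.03 FPKM in HTG and fell by 2.16 (SE 0.50, adjusted p = 0.0616), with -1.54 without HFD library 3 (adjusted p = 0.146). The 2 called genes of lipid synthesis thus went in opposite directions.

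HFD library 3 set the rest of the insulin-induced list, being the highest library for 8 of its 11 genes. Acly read 11.56, 10.58 and 192.45 FPKM in HFD and 7.44, 7.62 and 15.11 FPKM in HTG (log2 fold change -2.72, SE 1.06, adjusted p = 0.162), and Fasn, not named by rule and chosen after its values were seen, read 13.2, 5.13 and 284.15 FPKM in HFD and 10.83, 30.03 and 42.42 FPKM in HTG. The list's median log2 fold change was -1.6 over all libraries and 1.23 without HFD library 3, with 9 of 11 genes then higher in HTG, so no direction of the list can be given.

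**Figure D5:**
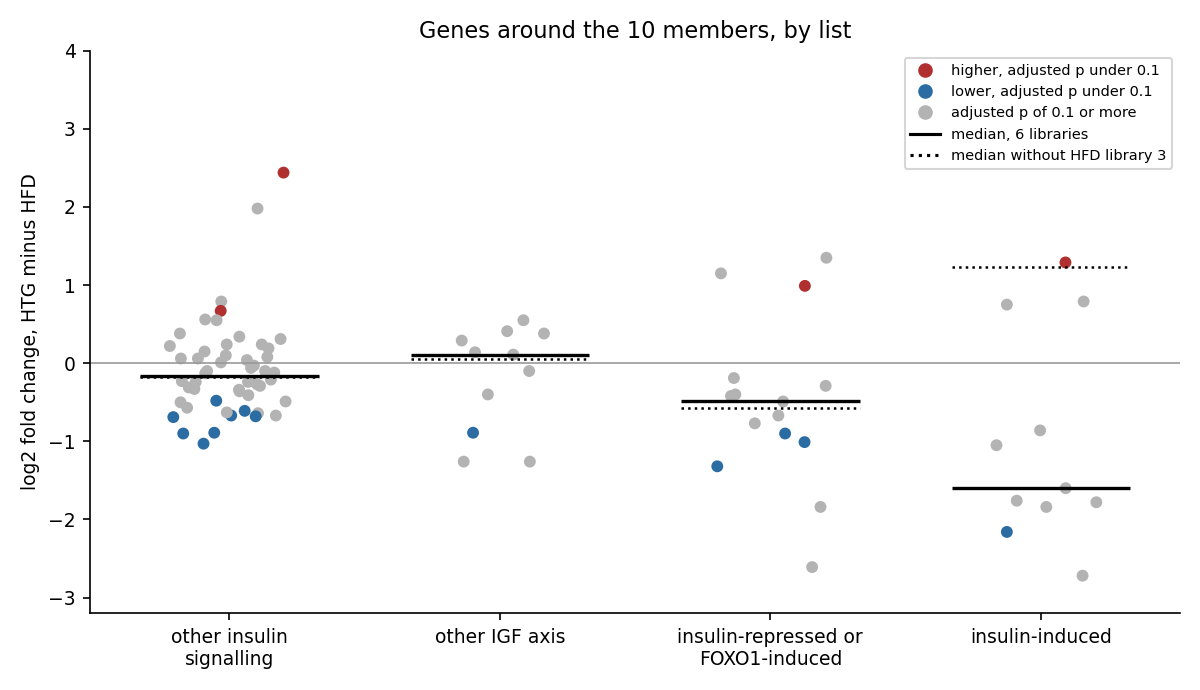
Log2 fold change, HTG over HFD, of every tested gene in each of the 4 lists, with called genes coloured, a solid line at each list's median and a dotted line at the median without HFD library 3. Medians are -0.17 for other insulin signalling genes, 0.11 for the IGF axis, -0.49 for insulin-repressed or FOXO1-induced genes and -1.6 for insulin-induced genes.

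Of the 17 list genes called in all, 17 lost the call in at least 1 of the 6 fits that left out a library, and 17 kept their direction in all of them. They were picked as called in these same libraries and their groups did not overlap by CPM, so no change of direction was to be expected. Markers of other liver cells did not separate the groups by their sums: Kupffer cell markers summed to 221 to 481 FPKM in HFD and 153 to 296 in HTG, leukocyte markers to 12.4 to 18.7 and 7.2 to 21.5, endothelial markers to 8.39 to 25.0 and 13.6 to 26.2, stellate cell markers to 17.8 to 28.3 and 14.5 to 23.2, biliary markers to 2.63 to 3.33 and 2.72 to 3.42, and red cell markers to 162 to 352 and 176 to 382. Single markers among them were called, Adgre1 and Reln lower and Sox9 higher. Exocrine pancreas markers summed to 1.2 to 1.48 FPKM in HFD and 0.48 to 2.49 in HTG and adipocyte markers to 0.03 at most. Pnlip and Adipoq were listed at 0 in every library. Of the same 2 marker lists, Cela2a held 70 to 232 counts in every library. Plin1 held 12, 7 and 4 counts in HTG libraries 1, 2 and 3 and 0 in every HFD library, and Prss2 held 3 counts in HFD library 1 only.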

How the data were processed

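Liver RNA of 3 HFD and 3 HTG animals was sequenced from poly(A)-selected paired-end libraries. The authors deposited 1 table with a column of estimated counts, not normalised, and an FPKM column per library, and no column went unmapped. The submitters' processing notes name HISAT2, StringTie and SAMtools, without versions, and the build mRatBN7.2. The strand setting of the counting is not given in the sources used here, so rows that overlap a member on the other strand could share its reads. All of those but Akt2-ps held at most 0.425% of the member's counts. Counts were rounded and tested in edgeR 4.0.16 (R 4.3.3) with TMM scaling, filterByExpr and group as the only term, with Benjamini-Hochberg adjustment over 18455 genes, and intervals used the moderated degrees of freedom of the test. An empty gene allows 12 counts, taken as 3 fragments, which covers counting error only. DESeq2 1.42.0 and limma 3.58.1, the latter on log2(FPKM + 0.1) where mean FPKM reached 1, were alternatives. Scripts were tested on simulated data. The 10 members were named by symbol, as were Igf1, Pck1 and G6pc. Some genes of the lists enter the counts but are not reported here by name. Of each list, up to 4 genes per direction past the volcano thresholds were named by rule, and other genes, including those named for being called, were chosen after their values were seen. Members, lists and the threshold of 0.1 were chosen with earlier results of these data known.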

Additional observations from a re-analysis of the deposited data

How the results depend on the processing

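Replicate numbers are not said to pair animals. Same-numbered HFD and HTG libraries had correlations of -0.0779, -0.0731 and 0.101 in their deviations from the group means. Differently numbered ones ran from -0.121 to 0.185. With 3 libraries a group, such values cannot exclude a pairing by number. With the replicate block 0 genes, 0 members and 0 list genes were called in edgeR, with 3867, 3 and 23 at an unadjusted p under 0.05. Against 999 genes called higher and 1002 lower, DESeq2 called 1599 and 1845, and no filter gave 638 and 665. In the main edgeR fit an adjusted p under 0.05 left 1 and 1, with 0 members and 0 list genes. At 0.05, edgeR gave 369 and 315 with at least 10 counts in every library, 459 and 363 with counts divided by 4, and 86 and 76 with no filter. Without single libraries the counts at 0.1 ran from 0 to 1002 higher, 0 to 1576 lower, 0 to 3 members and 0 to 21 list genes, against 3 and 17. The highest counts came without HTG library 1. The split of higher to lower calls was 935 to 1464 in limma and 907 to 1116 with DESeq2 size factors, but 1119 to 959 with upper-quartile scaling, 1326 to 1233 with at least 10 counts in every library and 1343 to 1229 with counts divided by 4. Members called stayed at 3 under DESeq2, limma and both other scalings, and were 2 with no filter. Of 42 named genes, 36 never changed sign. Of the other 6, Igfbp2 ran from -0.36 to 0.52 over the fits without 1 library: it was -0.07 without HFD library 1, -0.22 without HFD library 3 and -0.36 without HTG library 2. Irs2 ran from -0.44 to 0.21, with 0.21 without HFD library 2 and 0.15 without HTG library 2, and Pik3r1 from -0.29 to 0.01, the latter without HFD library 3. Fasn ran from -2.32 to 1.67, Scd1 from -2.52 to 0.01 and Thrsp from -2.47 to 2.04, with the highest values without HFD library 3. The cause was not tested. With 3 libraries a group, differences like that of Irs2 or Igfbp2 were not detectable at their spread.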
